A study of Mus musculus with 12 samples.

Results

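The enzymes and partner proteins that write, copy and remove DNA methylation, and the Polycomb genes Ezh2 and Suz12, were followed across mouse thymic lymphomas in which p53 had been restored. The set holds 10 genes: Dnmt1, Dnmt3a, Dnmt3b, Uhrf1, Hells, Tet1, Tet2, Tet3, Ezh2 and Suz12. They were found by matching the Ensembl identifiers of a table of 37991 genes to these symbols. All 10 were present and all 10 were among the 18612 genes that passed the filter on low counts. Each of the 12 tumours gave 1 RNA-seq library. The 4 non-responders and the 8 responders were labelled by whether the tumour grew or shrank on magnetic resonance imaging. All mice were C57BL/6 animals of genotype p53neo/R172H;R26CreER/GNZ, and all had received weekly tamoxifen to switch on the Cre recombinase that reactivates wild-type p53. Every tumour therefore carried the mutant R172H allele and was exposed to tamoxifen, and no untreated tumour was analysed here. Per the labels the tumours are independent biological samples; no age, batch, tumour size or number of tamoxifen doses is given. The comparison asks whether these chromatin genes differ between tumours that resisted p53 restoration and tumours that responded to it.

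DNA methylation in mammals is placed on cytosines that precede guanines. Dnmt3a and Dnmt3b set new methylation, while Dnmt1 copies it onto the daughter strand after replication, guided there by Uhrf1, which binds hemimethylated sites and histone H3. Hells (LSH) is a nucleosome remodeller that opens chromatin to these methyltransferases. Tet1, Tet2 and Tet3 oxidise 5-methylcytosine and so start its removal. Ezh2 is the catalytic subunit of Polycomb repressive complex 2 (PRC2), which methylates histone H3 at lysine 27, Suz12 is a core scaffold of that complex, and Ezh1 is the alternative catalytic subunit. Both systems are active in developing thymocytes, and loss-of-function mutations of DNMT3A, TET2, EZH2 and SUZ12 are known from human T-cell leukaemia and lymphoma.

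Several of these genes are copied into RNA as cells enter S phase, a step driven by E2F transcription factors. RefSeq promoter windows of GRCm38.p6, from 250 bases before to 50 bases after each transcription start, were therefore searched for 4 E2F-type octamers, TTTCGCGC, TTTGGCGC, TTTCCCGC and TTTGCCGC, on both strands. The octamers were chosen with the expression results in view. All 10 genes had a window, 15 windows in all, and 5 genes had at least 1 match: Dnmt1, Uhrf1, Hells, Ezh2 and Suz12. No window of Dnmt3a, Dnmt3b, Tet1, Tet2 or Tet3 held these letters. Among all 32851 windows 2.26% held a match, and among the 12328 tested genes with a window 4.17% did; in the list of DNA replication genes used below it was 11 of 25. The sites follow, each as 30 bases read 5′ to 3′ on the strand of the gene, with the octamer or its reverse complement in capitals. Dnmt1 had a pair of sites in a single window. They are shown to locate the matches in these 5 genes.

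Dnmt1, chr9:20952824-20952853, minus strand: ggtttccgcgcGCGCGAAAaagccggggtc
Dnmt1, chr9:20952574-20952603, minus strand: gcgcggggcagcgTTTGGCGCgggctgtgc
Uhrf1, chr17:56304117-56304146, plus strand: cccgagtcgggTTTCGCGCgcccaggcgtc
Hells, chr19:38930917-38930946, plus strand: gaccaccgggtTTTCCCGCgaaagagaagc
Ezh2, chr6:47595009-47595038, minus strand: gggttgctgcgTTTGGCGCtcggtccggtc
Suz12, chr11:79992876-79992905, plus strand: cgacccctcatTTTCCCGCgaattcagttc

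The libraries held 20796860 to 24393524 counts in non-responders and 23808086 to 30265753 in responders. Levels are CPM, counts scaled to the library total after normalisation by trimmed mean of M values (TMM). An estimate for a gene is its log2 fold change, with non-responders over responders, ± its standard error (SE). The edgeR quasi-likelihood test with Benjamini-Hochberg adjustment called 0 of 18612 genes at 0.05, while 4428 had an unadjusted p under 0.05; DESeq2 called 2462 and limma-voom with quality weights called 1723. Trp53, whose counts do not separate the mutant from the restored allele, had 63.1 to 73.4 CPM in non-responders and 47.1 to 111 CPM in responders. The thymic lymphoma label was checked against T cell markers: 12 of 12 T cell genes were detected, at a summed 2960 to 4109 CPM in non-responders and 997 to 4066 CPM in responders. RNA of other cell types was unequal between the groups. The mean score of 9 other-cell marker lists (mean log2 CPM) was 1.82 to 2.36 in non-responders and 2.41 to 5.63 in responders, so it was lower in every non-responder. Its parts included neutrophil genes, summed to 9.13 to 26.0 CPM in non-responders and 29.6 to 729 CPM in responders, and muscle genes, summed to 74.1 to 347 CPM in non-responders and 160 to 1384 CPM in responders. The summed markers of macrophages, at 1086 to 3345 CPM in non-responders and 836 to 3335 CPM in responders, overlapped throughout. Read gene by gene, 8 of the 10 macrophage markers were lower and 2 higher in non-responders, where 48.5% of all tested genes were higher. Of the 8, 4 had an unadjusted edgeR p under 0.05, beside 16.1% of all genes. Rag1, the recombinase of immature thymocytes, was 168 to 1756 CPM in all 4 non-responders and 895 to 1262 CPM in responders 1 to 3, against 0.41 to 2.91 CPM in responders 4 to 8. The double-positive thymocyte score, the mean log2 CPM of 12 genes of CD4 and CD8 positive immature thymocytes that include Rag1, was 6.37 to 8.33 in non-responders, against 7.19 to 7.98 in responders 1 to 3 and 2.12 to 3.57 in responders 4 to 8. In these bulk tumours fewer cells of a type and less RNA per cell cannot be told apart. The share of each difference below that lies with other cells or with thymocyte stage was not tested. Estimates from fits with these scores as covariates are given as values only. The other-cell score was lower in every non-responder, so a fit that holds it cannot tell group and score apart.

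No gene of the set was called by edgeR, and the 4 non-responders overlapped the 8 responders for all 10, where 0.951% of all tested genes had every non-responder above every responder and 1.18% the opposite. At an unadjusted edgeR p under 0.05 there was 1 member higher in non-responders, Ezh2, against 7.73% of all tested genes, and 1 lower, Tet2, against 16.1%, together 2 of 10 where 23.8% of all genes passed. The member estimates split 5 to 5 between higher and lower, with a median log2 fold change of 0.02, beside -0.02 over all tested genes, of which 48.5% were higher. DESeq2 called 0 of 10 members, where it called 2.8% of all genes as higher and 10.4% as lower, 13.2% in all. Limma-voom called Ezh2 and Tet1 as higher and no member as lower, where it called 4.55% of all genes as higher and 4.71% as lower, 9.26% in all.

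**Figure D1:**
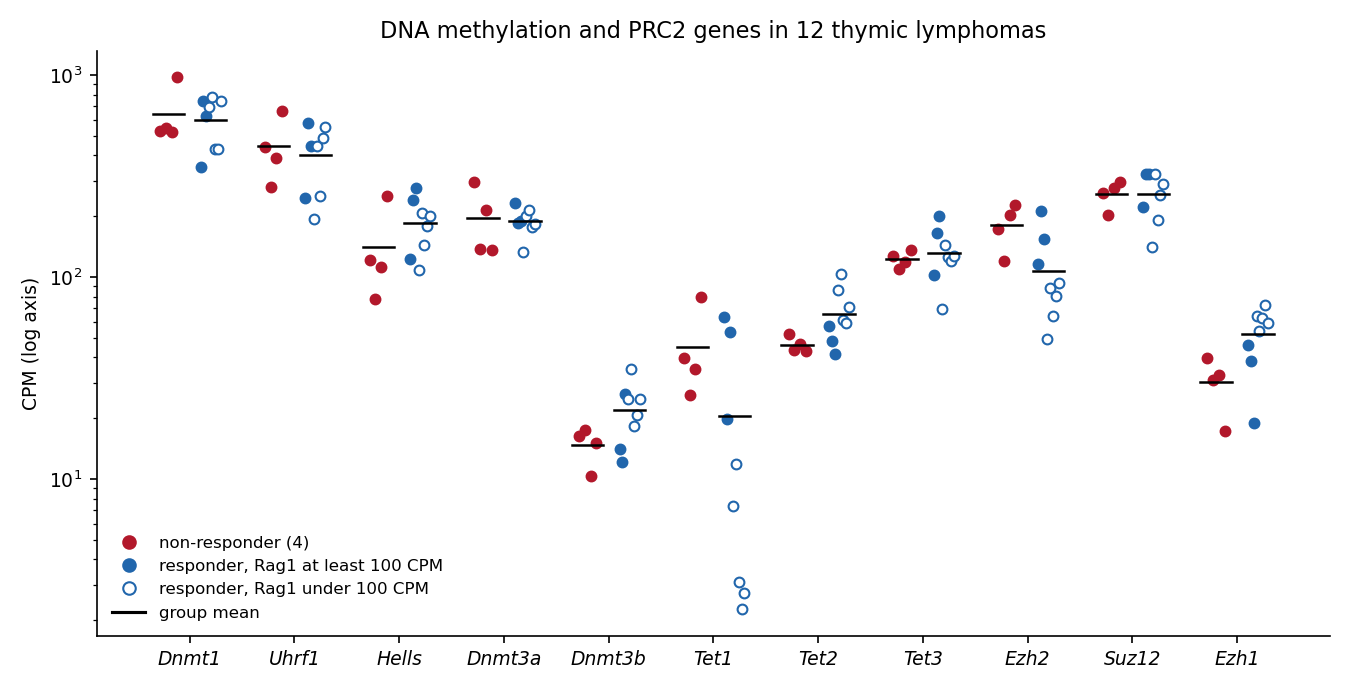
Levels of the 10 genes and of Ezh1 in CPM on a log axis, 1 point per tumour, with non-responders (red) left of responders (blue) and a bar at each group mean. Open symbols are the 5 responders with Rag1 under 100 CPM. Tet1 spans 35.2-fold from the lowest to the highest tumour and Dnmt3a 2.23-fold, and no gene separates the groups.

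Per kilobase of exon, which allows levels of different genes to be set side by side, the maintenance genes were the most abundant of the set. Uhrf1 averaged 97.4 and Dnmt1 83.3 CPM per kilobase over the 12 tumours, followed by Suz12 at 52.3. Hells (23.6) and Ezh2 (19.8) came next, then Dnmt3a (11.5) and Tet3 (7.72). Dnmt3b (3.85), Tet2 (3.52) and Tet1 (1.86) were the lowest on the same per-kilobase scale. Neighbours in this order overlapped across the 12 tumours, so the order of Uhrf1 and Dnmt1, or of Dnmt3b and Tet2, is not set by these means.

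Dnmt1, the maintenance methyltransferase (ENSMUSG00000004099, chr9:20907209-20959888, minus strand), had 531, 545, 522 and 975 CPM in non-responders 1 to 4, and 349, 658 and 777 CPM as the lowest, median and highest responder. Non-responder 4 stood above all 11 other tumours, while the other non-responders lay within the responder range. The means were 643 ± 221 CPM in non-responders and 600 ± 170 CPM in responders (SD, n = 4 and 8), an edgeR estimate of 0.10 ± 0.26 (adjusted p = 0.844). Without non-responder 4 the estimate was -0.17, so its sign rested on that tumour.

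Uhrf1 (ENSMUSG00000001228, chr17:56303321-56323486, plus strand), the partner that brings Dnmt1 to newly copied DNA, had 441, 281, 390 and 661 CPM in non-responders 1 to 4, and 194, 447 and 578 CPM as the lowest, median and highest responder. The highest tumour was again non-responder 4, and responder 4 was the lowest. The edgeR estimate was 0.14 ± 0.32 (adjusted p = 0.815), and it was -0.11 without non-responder 4.

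Hells (ENSMUSG00000025001, chr19:38930915-38971051, plus strand), the remodeller, had 122, 77.7, 112 and 251 CPM in non-responders 1 to 4, and 108, 190 and 277 CPM as the lowest, median and highest responder. Non-responders 1 to 3 were among the 4 lowest tumours, and non-responder 4 was second only to responder 3. The edgeR estimate was -0.39 ± 0.32 (adjusted p = 0.474). It was -0.83 without non-responder 4 and -0.96 with the other-cell score. Dnmt1, Uhrf1 and Hells thus shared a high value in non-responder 4 without sharing a direction between the groups.

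The de novo methyltransferases differed from each other in how much they varied. Dnmt3a (ENSMUSG00000020661, chr12:3806007-3914443, plus strand) had 296, 138, 215 and 136 CPM in non-responders, and 133, 187 and 234 CPM as the lowest, median and highest responder. It was the steadiest gene of the set, with a 2.23-fold range over 12 tumours, and its highest value was in non-responder 1. The edgeR estimate was 0.05 ± 0.22 (adjusted p = 0.917) and -0.22 without that tumour. Exons of Dnmt3a share 133 bases with the antisense gene Dnmt3aos, and since the strand used in counting is not given in the sources used here, reads there cannot be assigned. Ezh2, Suz12 and Tet2 likewise share 174, 178 and 43 exon bases with genes annotated on the opposite strand.

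Dnmt3b (ENSMUSG00000027478, chr2:153649450-153687730, plus strand) was less abundant than Dnmt3a per kilobase and had 16.4, 17.4, 10.3 and 15.1 CPM in non-responders, and 12.1, 22.8 and 35.1 CPM as the lowest, median and highest responder. A total of 6 of the 8 responders lay above every non-responder, and responders 1 and 2 lay among the non-responders. The means were 14.8 ± 3.1 CPM in non-responders and 22.1 ± 7.4 CPM in responders. The estimate of -0.57 ± 0.28 had an unadjusted edgeR p of 0.0614 and an adjusted p of 0.231, and it was -0.26 with the double-positive thymocyte score as a covariate.

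Tet1 (ENSMUSG00000047146, chr10:62804570-62908996, minus strand) had the widest spread of the set, with a standard deviation of 1.83 on the log2 CPM scale, at the 95th percentile of all tested genes. It had 39.6, 26.1, 34.9 and 80.1 CPM in non-responders 1 to 4. In responders 1 to 3 it had 63.5, 19.8 and 53.2 CPM, and in responders 4 to 8 it had 7.32, 11.8, 3.10, 2.27 and 2.74 CPM. The non-responders thus lay with responders 1 to 3, and 6 of the 8 responders were below every non-responder. The means were 45.2 ± 23.9 CPM in non-responders and 20.5 ± 24.3 CPM in responders (SD, n = 4 and 8), and the edgeR estimate was 1.14 ± 0.83 (adjusted p = 0.415). DESeq2 gave an adjusted p of 0.363. Limma-voom with quality weights gave a log2 fold change of 2.37 with an adjusted p of 0.0499, the lowest over all alternatives, which ran up to 0.999. With the double-positive thymocyte score as a covariate the estimate was 0.025, and with the other-cell score it was 0.32.

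Tet2 (ENSMUSG00000040943, chr3:133463679-133545139, minus strand) had its lower mean in non-responders. It had 52.1, 43.4, 46.7 and 43.1 CPM in non-responders, and 41.8, 60.2 and 103 CPM as the lowest, median and highest responder. The non-responders lay in a narrow band, 46.3 ± 4.2 CPM, and 6 of the 8 responders were above all of them; the responder mean was 65.9 ± 20.1 CPM. The estimate was -0.51 ± 0.23, with an unadjusted edgeR p of 0.0417 and an adjusted p of 0.194. It stayed negative in every alternative, from -0.58 to -0.12, and -0.12 was the value with the score of other cell types as a covariate.

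Tet3 (ENSMUSG00000034832, chr6:83362373-83459084, minus strand) was the most abundant Tet gene per kilobase. It had 126, 110, 118 and 136 CPM in non-responders, and 69.3, 127 and 201 CPM as the lowest, median and highest responder. All 4 non-responders lay inside the responder range. The edgeR estimate was -0.11 ± 0.23 (adjusted p = 0.811). The Tet genes therefore showed a higher mean of Tet1, a lower mean of Tet2 and nearly equal means of Tet3 in non-responders, with no edgeR call among them.

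Ezh2 (ENSMUSG00000029687, chr6:47530139-47595341, minus strand) had 174, 120, 204 and 228 CPM in non-responders 1 to 4. In responders 1 to 3 it had 116, 213 and 155 CPM, and in responders 4 to 8 it had 49.3, 88.4, 64.1, 80.3 and 93.4 CPM. The highest tumour was non-responder 4, and 6 of the 8 responders were below every non-responder. The means were 182 ± 46.5 CPM in non-responders and 107 ± 53.5 CPM in responders (SD, n = 4 and 8). The estimate was 0.76 ± 0.34, with an unadjusted edgeR p of 0.0428 and an adjusted p of 0.196. DESeq2 gave an adjusted p of 0.168, and limma-voom gave 1.01 on the log2 scale with an adjusted p of 0.0437, where the range over all alternatives ran up to 0.983. With the score of other cell types as a covariate the estimate turned to -0.08, and with the double-positive thymocyte score it was 0.15.

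Suz12 (ENSMUSG00000017548, chr11:79993106-80034123, plus strand), the scaffold, had nearly equal group means. It had 261, 204, 276 and 294 CPM in non-responders, and 141, 272 and 324 CPM as the lowest, median and highest responder. The non-responders lay in the middle of the responder range, with means of 259 ± 39.0 CPM in non-responders and 259 ± 68.8 CPM in responders. The edgeR estimate was -0.00 ± 0.23 (adjusted p = 0.999).

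**Figure D2:**
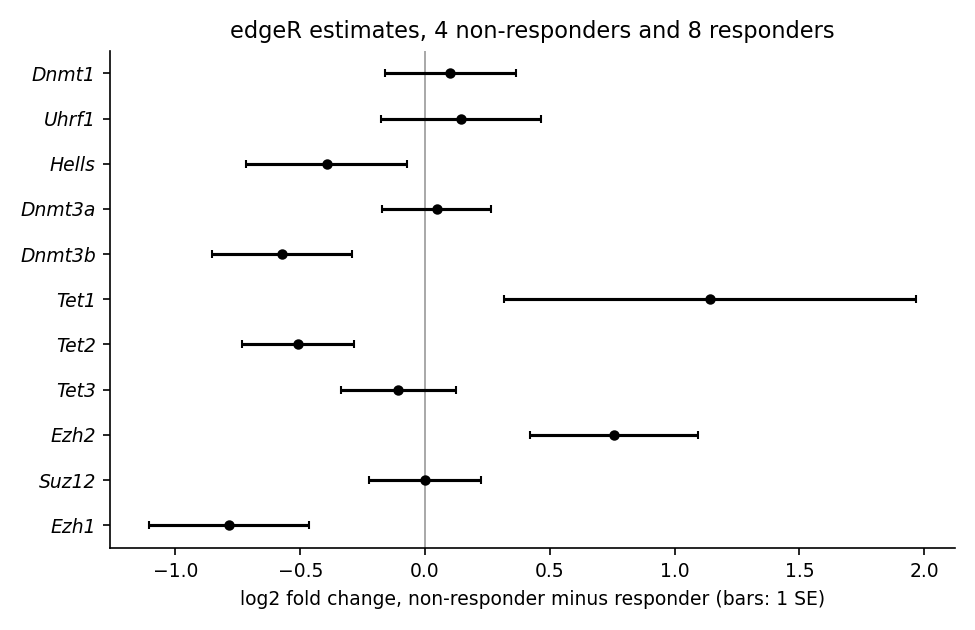
Log2 fold changes from the edgeR fit, non-responder minus responder, for the 10 genes and Ezh1, with bars of 1 SE on each side. Ezh2 (0.76) and Tet1 (1.14) lie highest and Ezh1 (-0.79), Dnmt3b (-0.57) and Tet2 (-0.51) lowest, and no adjusted p is under 0.05.

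Ezh1 (ENSMUSG00000006920, chr11:101191115-101226463, minus strand), the catalytic subunit that PRC2 carries in many resting and differentiated cells, had 39.6, 30.9, 32.9 and 17.4 CPM in non-responders, and 19.0, 56.8 and 73.0 CPM as the lowest, median and highest responder. A total of 6 of the 8 responders lay above all non-responders. The estimate was -0.79 ± 0.32, with an edgeR adjusted p of 0.167, a DESeq2 adjusted p of 0.105 and a limma-voom adjusted p of 0.0533, and up to 0.904 over the alternatives. It was -0.43 with the other-cell score and -0.27 with the double-positive thymocyte score. The balance of the catalytic subunits, Ezh2 CPM over Ezh1 CPM in the same library, does not depend on scaling. It was 4.39, 3.89, 6.19 and 13.1 in non-responders 1 to 4. It was 2.52, 5.56 and 8.14 in responders 1 to 3, and 0.768, 1.63, 1.03, 1.10 and 1.58 in responders 4 to 8. On the log2 scale the ratio averaged 2.61 ± 0.79 in non-responders and 0.997 ± 1.204 in responders (SD, n = 4 and 8), a difference of 1.61 (exact permutation test over 495 splits, two-sided, p = 0.0444, where the smallest possible p is 0.00202). The difference stayed positive when any tumour was left out, between 1.24 and 1.90. The permutation p was above 0.05 in 9 of those 12 fits, and it ranged from 0.0152 to 0.127. Ezh2 and Ezh1 each had an unadjusted edgeR p under 0.05 (0.0428 and 0.0294), as did 23.8% of all tested genes. Both were listed with earlier results of these data known, and the ratio was not set against those of other gene pairs.

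The same 5 responders were at the low end of Tet1 and Ezh2 and at the high end of Tet2 and Ezh1, and they were the tumours with almost no Rag1. Described by Rag1 and not by response, the 7 tumours with Rag1 at or above 100 CPM had 19.8 to 80.1 CPM of Tet1, against 2.27 to 11.8 CPM in the 5 others. Ezh2 was 116 to 228 CPM in the 7 and 49.3 to 93.4 CPM in the 5, and Tet2 was 41.8 to 57.0 CPM in the 7 and 59.5 to 103 CPM in the 5. Ezh1 was 17.4 to 46.0 CPM in the 7 and 54.4 to 73.0 CPM in the 5. Of the 10 genes of the set, 2 had every value of the 7 tumours above the 5 others and 1 had every value below, 3 in all; over all tested genes these shares were 5.77% and 5.31%, 11.1% in all. The other 7 genes overlapped between these tumours. Since all 5 are responders, a difference by response and a difference by Rag1 level cannot be told apart in them.

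Because several of the genes are transcribed with S phase, each was set against 30 DNA replication genes. Their mean log2 CPM, the replication score, was 6.76 ± 0.32 in non-responders and 6.40 ± 0.45 in responders, a difference of 0.36 (exact permutation test, two-sided, p = 0.194). A total of 28 of the 30 were higher in non-responders, where 48.5% of all tested genes were, with a median log2 fold change of 0.33. An unadjusted edgeR p under 0.05 was found for 3 of the 30, all higher, and limma-voom called 3 as higher, beside 7.73% and 4.55% of all genes. Of 20 mitosis genes 19 were higher, with a median of 0.42, and 4 of them had an unadjusted edgeR p under 0.05, read against the same shares of 48.5% and 7.73%. Limma-voom called 5 of the 20 as higher and 0 as lower, beside 4.55% and 4.71% of all genes. DESeq2 called 0 genes of either list. Mki67, the proliferation marker, had 1960, 1334, 1272 and 2152 CPM in non-responders, and 770, 1303 and 1857 CPM as the lowest, median and highest responder. Its estimate in edgeR was 0.37 ± 0.29 (adjusted p = 0.457).

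Part of the set varied less across tumours when expressed relative to the replication score. How many of all tested genes do so was not counted, so the change is not read as particular to these genes. The score was lowest in responder 4 (5.68), which also had the lowest mean log2 CPM of the 12 T cell genes (6.20). For Uhrf1 the standard deviation over 12 tumours was 0.56 for log2 CPM and 0.28 for the log2 ratio to the replication genes, close to the change in Mki67, from 0.53 to 0.27. For Ezh2 it was 0.72 and then 0.42, for Suz12 0.37 and then 0.25. Hells (0.58 and then 0.49), Tet3 (0.38 and then 0.30) and Dnmt1 (0.43 and then 0.42) shrank less. Among these genes Tet3 holds none of the octamers searched; since the octamers were chosen with these levels in view, nothing is read from which genes hold them. For Dnmt3a the spread grew, from 0.34 to 0.57, as it did for Dnmt3b, from 0.51 to 0.75, and for Tet2, from 0.41 to 0.75. Tet1 was at 1.83 and then 1.68, so its spread was also smaller relative to the replication genes but remained the widest of the set.

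With the replication score as a covariate in edgeR, the estimate for Ezh2 was 0.43 and for Tet1 0.71, both still above 0. Uhrf1 turned to -0.27 and Dnmt1 to -0.11, so both maintenance genes changed sign in that fit. Hells moved to -0.86, from -0.39 without the covariate. None had an adjusted p under 0.05 in that fit.

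**Figure D3:**
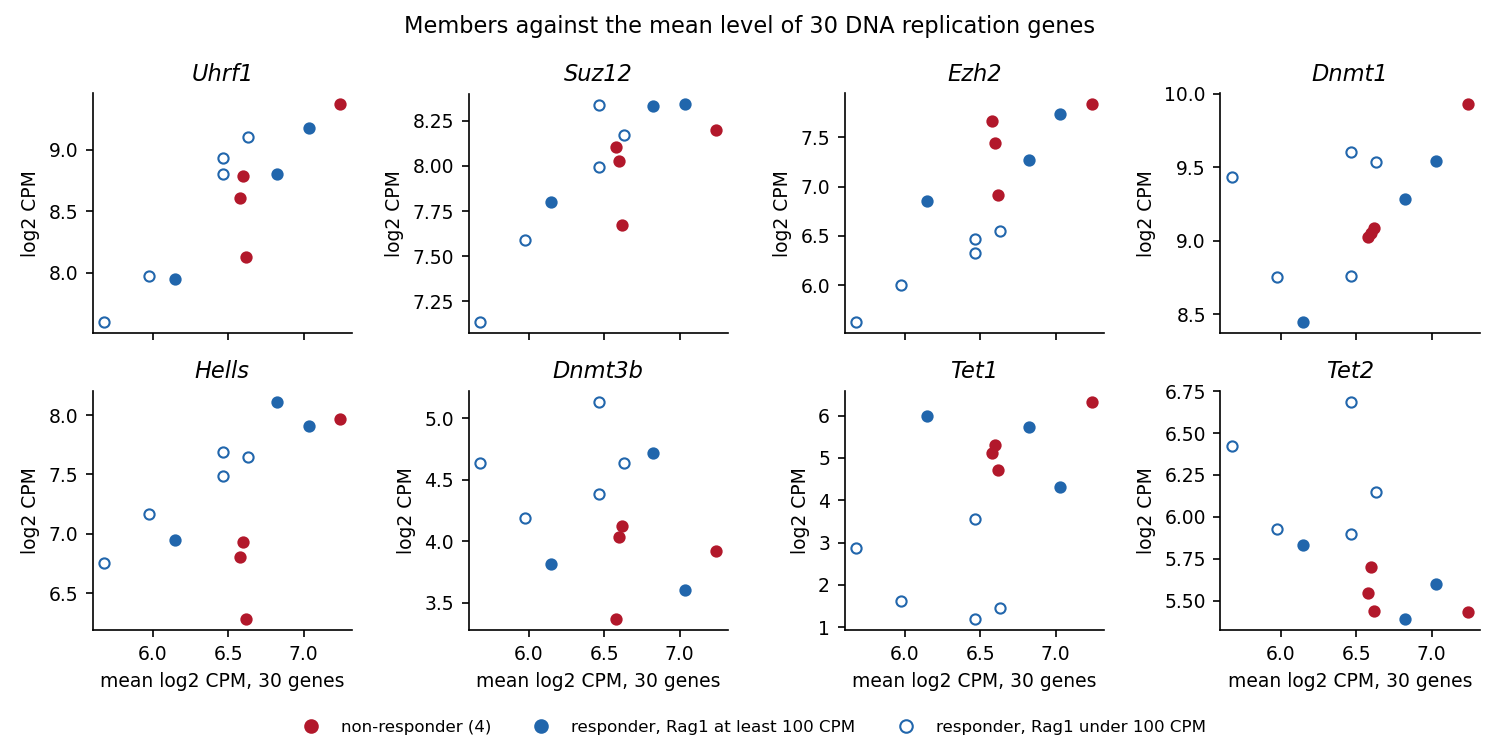
Log2 CPM of 8 of the genes (vertical axes) against the mean log2 CPM of 30 DNA replication genes (horizontal axes), 1 point per tumour, non-responders in red and responders in blue, open where Rag1 is under 100 CPM. Relative to the replication genes Uhrf1 and Suz12 vary least (SD of the log2 ratio 0.28 and 0.25) and Tet2 and Dnmt3b more (0.75 each). Tet1 is low in responders 4 to 8, at replication scores of 5.68 to 6.63. These scores overlap in part with those of the other tumours, 6.15 to 7.24.

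A total of 3 genes, Hells, Tet1 and Ezh2, varied more than the median tested gene, and for these the genes with the most similar pattern over the 12 tumours were sought as the smallest standard deviation of the log2 ratio among 15304 genes. Hells was closest to Nolc1 (0.21), Pprc1 (0.25) and Npm3 (0.26). Tet1 was closest to the receptor phosphatase Ptprf (0.50), then to adenosine deaminase, Ada (0.71), and to Tdrkh (0.74). Ezh2 was closest to Tigd3 (0.14), then to Mapk1ip1l (0.19) and to Phc1 (0.23), which encodes a subunit of Polycomb repressive complex 1 (PRC1). Levels of Tigd3 were low, at 1.497 to 7.04 CPM over the tumours. These are descriptions over 12 libraries that share depth and tumour makeup.

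Of 10 tested further subunits of PRC2, 3 were higher and 7 lower in non-responders, where 48.5% of all tested genes were higher. Their median log2 fold change was -0.25. Ezh1, lower in non-responders, was the 1 with an unadjusted edgeR p under 0.05, beside 16.1% of all genes. PRC1 binds the mark left by PRC2 and ubiquitinates histone H2A. Of its 21 tested genes 11 were higher and 10 lower, with a median of 0.04, and 5 higher and 1 lower had an unadjusted edgeR p under 0.05, that is, 5 of 21 beside 7.73% of all genes and 1 of 21 beside 16.1%. DESeq2 called 3 of 21 higher and 1 lower, beside 2.8% and 10.4% of all genes, and limma-voom called 5 higher and 0 lower, beside 4.55% and 4.71%.

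Bmi1, the PRC1 subunit known for self-renewal of lymphoid progenitors, had 184, 186, 112 and 159 CPM in non-responders, and 42.1, 57.4 and 147 CPM as the lowest, median and highest responder. Its estimate of 1.08 ± 0.33 had adjusted p-values of 0.117 in edgeR, 0.0318 in DESeq2 and 0.0352 in limma-voom, and up to 0.884 over the alternatives. It was 0.51 with the other-cell score and 0.57 with the double-positive thymocyte score. Bmi1 was 96.7 to 186 CPM in the 7 tumours with Rag1 at or above 100 CPM and 42.1 to 59.6 CPM in the 5 others. Of all tested genes 5.77% had every value of the 7 above the 5. Kdm2b, which recruits a PRC1 form to unmethylated CpG islands, had a log2 fold change of 0.69 (edgeR adjusted p = 0.117) and Pcgf3 one of 0.78 (edgeR adjusted p = 0.118). Adjusted p-values for Kdm2b were 0.0307 in DESeq2 and 0.0427 in limma-voom, and up to 0.837 over the alternatives. For Pcgf3 they were 0.0421 and 0.0366, and up to 0.839. With the other-cell score the estimates were 0.44 and 0.51. Pcgf3 was 48.7 to 114 CPM in the 7 tumours with Rag1 at or above 100 CPM and 33.6 to 47.5 CPM in the 5 others, while Kdm2b overlapped. Cbx7, a PRC1 reader of the PRC2 mark, had 42.9, 43.5, 26.1 and 20.7 CPM in non-responders, and 22.1, 116 and 414 CPM as the lowest, median and highest responder. Responders 4 to 8 held at least 112 CPM of Cbx7, and responders 1 to 3 lay with the non-responders, at 22.1 to 46.8 CPM. The edgeR estimate was -1.91 ± 0.68 (adjusted p = 0.133). DESeq2 gave an adjusted p of 0.0244 and limma-voom one of 0.0637, and the alternatives ran up to 0.891. The estimate was -0.48 with the double-positive thymocyte score, -0.90 with the other-cell score and -1.32 without responder 5.

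**Figure D4:**
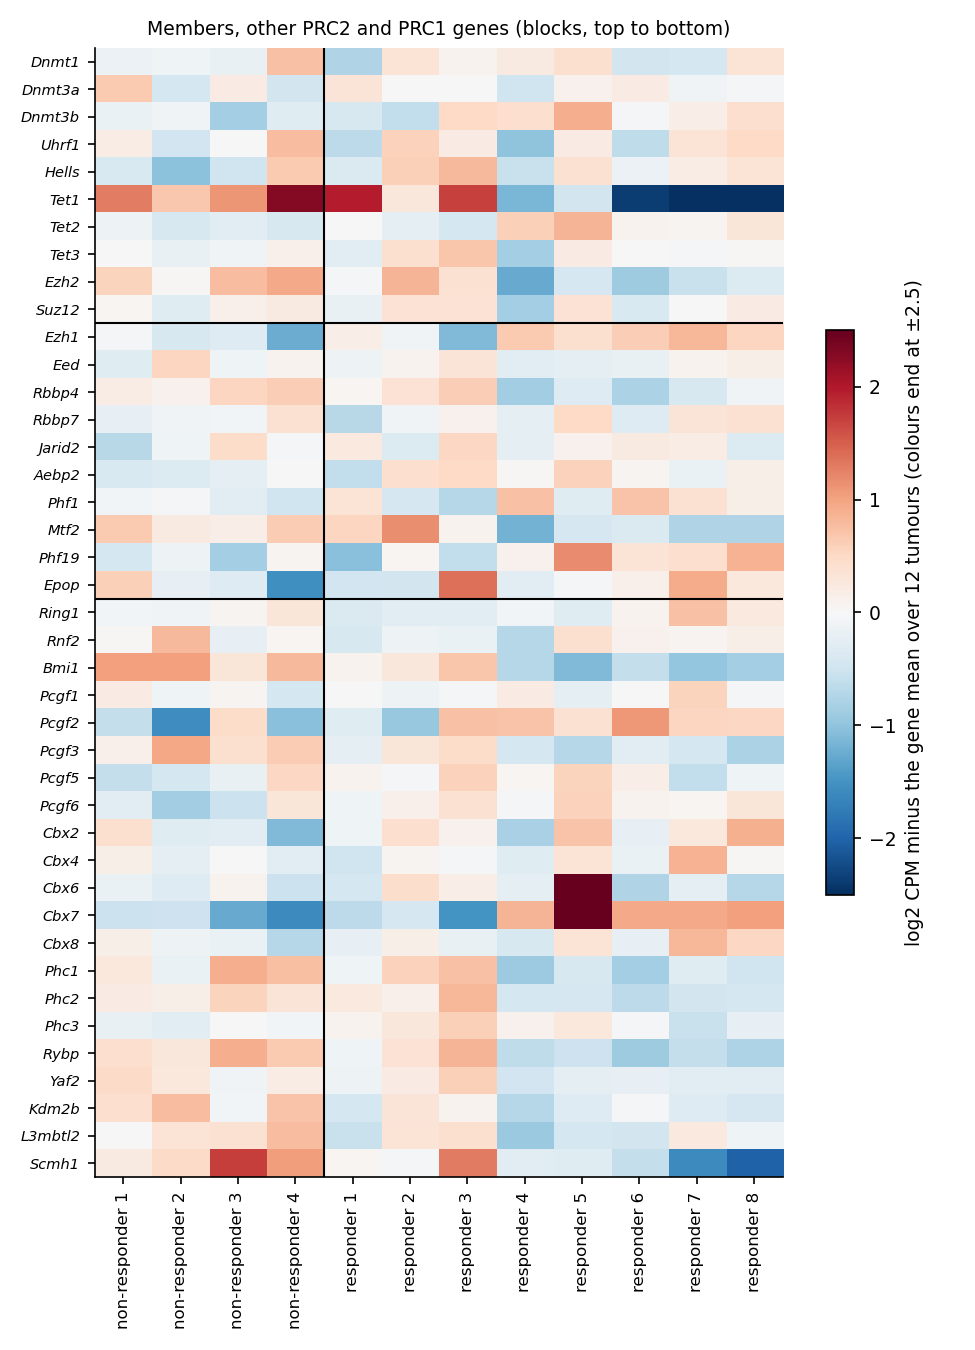
Log2 CPM minus the mean of each gene over the 12 tumours, with non-responders left of the vertical line and responders right of it; the blocks, from the top, are the 10 genes, the other PRC2 genes and the PRC1 genes. Tet1 is low in responders 4 to 8, where Ezh1 and Cbx7 are high and Bmi1 is low, and Cbx7 and its neighbour Cbx6 are highest in responder 5.

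Enzymes that undo Polycomb marks and their Asxl partners numbered 7 tested genes, 2 higher and 5 lower, where 48.5% of all tested genes were higher. At an unadjusted edgeR p under 0.05 there was 1 higher, Bap1, beside 7.73% of all genes, and 1 lower, Asxl3, beside 16.1%. DESeq2 called 1 of 7 higher and 1 lower, beside 2.8% and 10.4% of all genes. Limma-voom called 1 higher and 0 lower, beside 4.55% and 4.71%. Asxl3 had an edgeR estimate of -2.02 (adjusted p = 0.127), with adjusted p-values of 0.0242 in DESeq2 and 0.0543 in limma-voom. Bap1, a histone H2A deubiquitinase, had 167, 97.7, 134 and 155 CPM in non-responders, and 61.0, 78.2 and 139 CPM as the lowest, median and highest responder. Its estimate in edgeR was 0.69 ± 0.22 (adjusted p = 0.118), with a DESeq2 adjusted p of 0.0449 and a limma-voom adjusted p of 0.0387, and up to 0.934 over the alternatives. With the other-cell score it was 0.19. Of 9 tested genes of histone H3 lysine 9 methylation, which cooperates with DNA methylation, 8 were higher, read against the same 48.5%. Their median was 0.25. An unadjusted edgeR p under 0.05 was found for 1 of the 9, higher in non-responders, beside 7.73% of all genes.

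Among 16 tested readers of DNA methylation and cofactors of its enzymes, 10 were higher and 6 lower, with a median of 0.26. Of all tested genes 48.5% were higher. Usp7, a deubiquitinase that stabilises Dnmt1 and Uhrf1, had an edgeR estimate of 0.54 ± 0.21 (adjusted p = 0.156), which was 0.13 with the score of other cell types as a covariate. Usp7 was 401 to 579 CPM in the 7 tumours with Rag1 at or above 100 CPM and 207 to 368 CPM in the 5 others. Of all tested genes 5.77% had every value of the 7 above the 5. Zbtb4, which binds methylated DNA, had an estimate of -1.07 ± 0.45 in edgeR (adjusted p = 0.179). That estimate was -0.087 with the other-cell score, -0.23 with the double-positive thymocyte score and -0.29 with the replication score. The 10 tested genes of cytosine demethylation downstream of or beside the Tet enzymes had 6 higher and 4 lower, read against the same 48.5%. Their median was 0.07. Tdg, the glycosylase that excises oxidised methylcytosine, had an edgeR estimate of 0.74 ± 0.31 (adjusted p = 0.179) and turned to -0.07 with the score of other cell types as a covariate. Its adjusted p was 0.148 in DESeq2 and 0.0451 in limma-voom, and up to 0.983 over the alternatives. Tdg was 68.1 to 174 CPM in the 7 tumours with Rag1 at or above 100 CPM and 32.5 to 66.2 CPM in the 5 others.

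Genes that these systems are known to keep silent were also read. Of 19 germline genes known as targets of promoter methylation, 14 did not reach 1 CPM in any tumour and 3 peaked between 1 and 10 CPM. Only Brdt and Piwil2 of the list passed 10 CPM in some tumour. Brdt, a testis bromodomain gene, had 14.8, 12.3, 12.8 and 13.4 CPM in non-responders, and 1.43, 3.01 and 13.9 CPM as the lowest, median and highest responder. Its estimate in edgeR was 1.34 ± 0.60 (adjusted p = 0.20), and with the other-cell score it was 0.060. The adjusted p was 0.0390 in limma-voom and 0.135 in DESeq2, with a range up to 0.994 over the alternatives. In responders 4, 5, 6 and 8 Brdt was between 1.43 and 1.86 CPM, while responders 3 and 7 had 13.9 and 10.1 CPM.

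Of 26 developmental regulators known as Polycomb targets, 10 did not reach 1 CPM, 8 peaked between 1 and 10 CPM and 8 passed 10 CPM. Of the 15 tested, 4 were higher and 11 lower in non-responders, where 48.5% of all tested genes were higher. Their median log2 fold change was -0.68. An unadjusted edgeR p under 0.05 was found for 6 lower, against 16.1% of all genes, and for 1 higher, against 7.73%. Limma-voom called 1 of 15 higher, Lhx2 (adjusted p = 0.0366), and 0 lower, beside 4.55% and 4.71% of all genes. DESeq2 called 1 of 15 higher and 3 lower, beside 2.8% and 10.4% of all genes. The lower ones include Hoxa5, with 0.28 to 0.34 CPM in non-responders and 0.20 to 4.52 CPM in responders, and its log2 fold change of -2.16 turned to 0.76 with the score of other cell types as a covariate. Lin28b, an RNA-binding protein of fetal lymphoid progenitors, was the 1 higher at an unadjusted edgeR p under 0.05. It had 0.41, 11.4, 0.23 and 33.3 CPM in non-responders 1 to 4 and between 0 and 1.86 CPM in responders, so its edgeR estimate of 5.0 ± 1.26 (adjusted p = 0.117) came from non-responders 2 and 4. DESeq2 gave it an adjusted p of 0.00196 and limma-voom one of 0.0741, and the alternatives ran up to 0.768.

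Among the E2F and RB family genes, some of which bind octamers like those printed above, 12 of 15 tested were higher and 3 lower. Their median was 0.26, and 48.5% of all tested genes were higher. E2f5, a repressive member, was the 1 gene of all lists named here outside the cell types whose groups did not overlap. It had 5.46, 4.81, 4.05 and 4.13 CPM in non-responders, and 7.42, 7.90 and 10.2 CPM as the lowest, median and highest responder. Every non-responder was below every responder, as for 1.18% of all tested genes. The estimate was -0.84 ± 0.21, with adjusted p-values of 0.117 in edgeR, 3.07e-05 in DESeq2 and 0.0357 in limma-voom, and up to 0.760 over the alternatives. E2f6, which acts with a PRC1 form, had an edgeR estimate of 0.63 ± 0.20 (adjusted p = 0.118). Its adjusted p was 0.0327 in DESeq2 and 0.0491 in limma-voom, and up to 0.832 over the alternatives.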

How the data were processed

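RNA was extracted with TRIzol from flash-frozen tumours and made into libraries with an Illumina TruSeq mRNA kit, sequenced on a HiSeq3000, per the labels' protocols. The authors deposited a single table of raw read counts, whole numbers for each Ensembl identifier; HTSeq and DESeq are named in the submitters' processing notes, without versions. The genome build is unsettled, since those notes name NCBIM37 and the labels' protocols name mm10. The sources used here give neither the aligner nor the use of strand. Symbols were matched by identifier to GENCODE M21 (32919 of 37991); positions are GRCm38, 1-based, and promoter sequences are RefSeq's for GRCm38.p6.

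Columns were assigned to tumours by title, and groups by the response label. Counts were filtered with filterByExpr, scaled by TMM and tested with edgeR 4.0.16 in R 4.3.3 (robust quasi-likelihood F test, two-sided, Benjamini-Hochberg over 18612 genes, threshold 0.05, group as the only term). Standard errors came from the F statistic. Log2 CPM used a prior count of 2. Scores are means of log2 CPM over a list. A score and a ratio were compared by exact permutation over 495 splits.

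Alternatives were scaling by RLE or by the upper quartile, a fit without a filter, 1 CPM in 4 libraries, no robust dispersion, DESeq2 1.42.0, limma-voom (limma 3.58.1), a replication, other-cell or double-positive thymocyte score as covariate, a threshold of 0.1, a prior count of 0.5, the median in place of the mean, and leaving out each tumour. The fits were tested on simulated data. No pair of libraries was a repeat (the smallest chi-square over degrees of freedom was 58.8 among 66 pairs).

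The 10 genes, the lists and the octamers were chosen with earlier results of these data known. The text may name the 10 genes, Ezh1, Trp53, Rag1 and Mki67, from each list the 3 tested genes with the lowest edgeR p in each direction, and the 3 most similar genes of each member that varied more than the median gene; it names part of these.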

Additional observations from a re-analysis of the deposited data

Results flagged for a closer look

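Single tumours stood apart from the rest of their group in 7 of 62 groups of values checked, by the gap to the nearest tumour relative to the whole range. The limit used flags about 1 in 20 groups of independent, normally distributed values. CPM need not be normally distributed, the genes share tumours, and many were named for a low p in these data. The count of 7 is therefore not set against a chance rate. In non-responder 4, 3 genes did so: Dnmt1 at 975 CPM, where the next non-responder had 545 CPM, Tdg at 174 CPM, where the next had 96.9 CPM, and the replicative helicase gene Mcm7 at 756 CPM, where the next had 445 CPM. Non-responder 4 also had the highest replication score, 7.24, against 6.58 to 6.62 in the other non-responders. In responder 4, Hoxa5 was 4.52 CPM, where the next responder had 1.43 CPM, and E2f5 was 10.2 CPM, where the next had 8.61 CPM. Cbx7 was 414 CPM in responder 5, where the next responder had 127 CPM. Lin28b was 1.86 CPM in responder 3, where the next had 0.39 CPM.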

How the results depend on the processing

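The comparison rests on 4 non-responders with 1 library each, and reads shared with antisense genes cannot be assigned. edgeR called 0 genes at 0.05; DESeq2 called 2462, limma-voom 1723 and edgeR at a threshold of 0.1 called 1. Leaving out each tumour gave 0 to 5 edgeR calls, 5 without responder 3, 3 without non-responder 1 and 1 without non-responder 3. Of the member estimates under other settings, 84 kept direction and side of the threshold, and 2 passed it (in limma-voom, Tet1 at 2.37 and Ezh2 at 1.01). The other 14 changed sign, in each case with an adjusted p above 0.05, and the cause was not tested. With the replication score as covariate, Dnmt1 was -0.11 and Uhrf1 -0.27. With the other-cell score, Dnmt1 was -0.060, Dnmt3a -0.052, Uhrf1 -0.60 and Ezh2 -0.082, and among other genes Tdg was -0.072, Hoxa5 0.76, Cdk1 -0.036 and Cdc20 -0.087. With the double-positive thymocyte score, Dnmt3a was -0.13, Uhrf1 -0.022 and Trp53 0.12. Dnmt3a was -0.014 with upper-quartile scaling and -0.085 in limma-voom. Suz12 and Trp53, both at -0.00 in the edgeR fit, were 0.016 and 0.015 with RLE scaling, 0.042 and 0.045 without a filter, 0.016 and 0.016 in DESeq2 and 0.058 and 0.048 in limma-voom. Over the fits that left out a tumour, Dnmt1 ran from -0.17 to 0.21, Dnmt3a from -0.22 to 0.19, Uhrf1 from -0.11 to 0.33, Tet3 from -0.20 to 0.0057, Suz12 from -0.086 to 0.11 and Trp53 from -0.053 to 0.12, the estimates whose sign turned. The log2 ratio of Ezh2 to Ezh1 ran from 1.24 to 1.90. RLE scaling shifted the median of all genes by 0.02 and upper-quartile scaling by -0.06 on the log2 scale. No paired analysis was made, since the labels link no responder to a non-responder. The labels give no replicate numbers, and the numbers used here only name the tumours.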

Other observations

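Neighbours of Asxl1 and of Cbx7 were looked at in a single tumour each. Both genes were picked after the values were seen, as far out in that tumour, and the cause was not tested. Each count below includes the picked gene itself, so part of it was fixed in advance. In responder 7, 15 of 33 tested genes within 1000 kb of Asxl1 on chromosome 2, a Polycomb-associated gene, were above all 11 other tumours, where 6.49% of all tested genes were so in that tumour. Asxl1 itself had 535 CPM, 3.37 times the median of the other tumours, Pdrg1 had 360 CPM, 8.98 times it, and the spindle gene Tpx2 had 599 CPM, 4.29 times it. Dnmt3b starts 304 kb beyond Asxl1 and had 20.9 CPM in that tumour, 1.198 times the median of the others. In responder 5, 5 of 49 tested genes within 1000 kb of Cbx7 on chromosome 15 were above all 11 other tumours, where 5.34% of all tested genes were so in that tumour. Cbx7 had 414 CPM, 9.53 times the median, its paralogue neighbour Cbx6 had 594 CPM, 7.60 times it, and Apobec3, a cytidine deaminase gene, had 725 CPM, 4.21 times it. Pdgfb, within the same distance, had 178 CPM, 23.0 times the median of the others.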
